A study of Mus musculus with 3 samples.

Results

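The 10 genes described here, Pecam1, Cdh5, Cldn5, Emcn, Ly6c1, Gpihbp1, Fabp4, Aqp1, Vwf and Egfl7, were listed by symbol as identity genes of capillary and venous endothelium, and each symbol was found once among the 32285 genes of the files. They were followed in Visium libraries, in which a frozen section lies on a slide of barcoded spots that capture its transcripts in place, and 1 spot may cover more than 1 cell and cell type. There was 1 section per condition, all from hearts of C57BL/6 mice, and values after I/R are those of the section without SBP. The sham mouse was gavaged with vehicle for 7 days and then underwent the operation with no ligation or reopening of the artery. The I/R mouse received the same vehicle for 7 days, and its left anterior descending artery was ligated for 30 min and reopened for 24 h. The SBP mouse received the traditional Chinese medicine pill SBP (labelled MUSKARDIA) for 7 days and then the same ligation and reperfusion. The mice were 8 weeks old when supplied, per the methods, which also describe a cut piece of heart per section, and the labels do not give the level of the cut. The kept spots numbered 2234 in sham, 2082 after I/R and 1960 with SBP, with 21631280 to 30238530 UMIs (unique molecular identifiers, 1 per captured transcript) per section and a median of 10645 to 14672 per spot. Mitochondrial genes took 48.6% of UMIs in sham, 44.3% after I/R and 46.3% with SBP. The sections shared 1207 to 1568 spot barcodes pairwise, since these barcodes name positions on the slide.

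The endothelium lines every blood vessel of the heart, and most of its cells belong to the capillaries that run along each muscle fibre. They hold together through junction proteins, take fatty acids out of the blood for the muscle beside them, and let water pass. Veins and the endocardium, the lining of the chambers, share several of these genes with the capillaries and store clotting factor. A level is given below as UMIs per 1000000 UMIs of the same spots (CPM). Transcripts were captured by their polyA tails, and levels are compared between sections for 1 gene at a time. With 1 section per condition there was no replicate and no test, and the 95% intervals (exact Poisson for a level, exact conditional binomial for a ratio, Clopper-Pearson for a share) cover counting error only. In whole spots, fewer cells of a type and less RNA per cell cannot be told apart.

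Markers that were no members showed endothelium in each section. All 12 pan-endothelial markers listed beside the members (Tie1, Tek, Kdr, Flt1 and others) had UMIs in each section, and their summed level was 380 CPM in sham, 433 CPM after I/R and 411 CPM with SBP. The 7 further capillary markers summed to 324, 305 and 310 CPM in the same order. The 6 vein markers summed to 46.8, 61.2 and 66.8 CPM, and Ackr1, the defining marker of venules, was near 0 with 16, 19 and 12 UMIs. Markers of endothelium, capillaries and veins were thus each found. The capillary and vein sums are of different genes, and Cav1 (2961 UMIs in sham) and Sparcl1 (2804) held most of the capillary sum. In sham the capillary markers Rgcc (439 UMIs) and Timp4 (374) were near the vein markers Nr2f2 (434) and Ephb4 (433). Among the vein markers, Selp (24 UMIs in sham) was scarce along with Ackr1.

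Transcription of the endothelium is known to be driven by factors of the ETS and KLF families, and for that reason start regions are shown for Aqp1 and Cldn5, which differed in opposite directions between SBP and I/R. They are reference sequences from RefSeq (GRCm38.p6), each running 5′ to 3′ from 250 bases before to 50 bases after a transcription start, with letters of the KLF motif CCNCACCC (either strand) in capitals. The Aqp1 window is chr6:55336049-55336348 on the plus strand and the Cldn5 window is chr16:18776597-18776896 on the plus strand. The Aqp1 window ends before the gene start at 55336432 in the annotation used for positions below, so the 2 sources place that start differently.
Aqp1: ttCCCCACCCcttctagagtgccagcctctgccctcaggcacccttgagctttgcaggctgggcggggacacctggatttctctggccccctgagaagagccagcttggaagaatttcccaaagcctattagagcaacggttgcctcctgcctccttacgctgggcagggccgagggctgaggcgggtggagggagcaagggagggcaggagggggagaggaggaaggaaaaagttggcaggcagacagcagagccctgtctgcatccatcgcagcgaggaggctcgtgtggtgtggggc
Cldn5: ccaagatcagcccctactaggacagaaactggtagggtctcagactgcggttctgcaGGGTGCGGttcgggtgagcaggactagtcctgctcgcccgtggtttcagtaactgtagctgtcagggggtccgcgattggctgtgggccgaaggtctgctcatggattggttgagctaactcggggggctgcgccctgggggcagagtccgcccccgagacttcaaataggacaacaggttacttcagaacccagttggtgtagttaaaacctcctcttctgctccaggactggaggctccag
Of the 10 members, 5 had entries (Egfl7, Emcn, Aqp1, Ly6c1 and Cldn5), in 8 windows. The KLF letters were in 2 of these 8 windows and in 16.6% of all 32851 windows. The ETS core GGAAGT was in 3 of the 8, in Egfl7 and Ly6c1 windows, and in 23.8% of all, while the GATA motif AGATAA was in 0 of 8 and 11.2% of all. The TATA box TATAAA was in 1 of the 8, a Ly6c1 window, and in 13.6% of all. Both strands were searched, and such a match is a description of letters only.

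In CPM, the 3 junction genes were each highest after I/R, by unlike margins, and differed in the order of sham and SBP. For Cdh5 against sham and Pecam1 against SBP that direction depends on the scaling, as given below. Cldn5 (claudin-5, the tight junction protein of endothelium; chr16:18776847-18778262, plus strand, GRCm38) was at 26.4 CPM in sham (95% interval 24.4 to 28.5), 38.1 CPM after I/R (35.9 to 40.3) and 18.3 CPM with SBP (16.5 to 20.2). The 3 intervals do not overlap, and the order was SBP, sham, I/R. Pecam1 (CD31, an adhesion protein of cell contacts that platelets and leukocytes also carry; chr11:106654217-106750628, minus strand) was at 47.3 CPM in sham, 60.4 CPM after I/R and 54.9 CPM with SBP. Pecam1 was lowest in sham, and the intervals of I/R (57.6 to 63.2) and SBP (51.8 to 58.1) overlap. Cdh5 (VE-cadherin, the adherens junction protein found almost only in endothelium; chr8:104101625-104144511, plus strand) was at 66.7 CPM in sham, 73.2 CPM after I/R and 62.6 CPM with SBP. Cdh5 was highest after I/R, and its intervals overlap between sham (63.5 to 70.0) and SBP (59.3 to 66.1).

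The genes of the vessel surface, Emcn and Ly6c1, showed small differences. Emcn (endomucin, a sialomucin of capillary and venous endothelium; chr3:137341067-137432185, plus strand) was at 45.2 CPM in sham, 47.6 CPM after I/R and 46.7 CPM with SBP, with overlapping intervals throughout. Ly6c1 (a glycolipid-anchored protein of capillary endothelium; chr15:75044018-75048830, minus strand) was at 135 CPM in sham, 155 CPM after I/R and 165 CPM with SBP. The sham interval (131 to 140) lay below the others, and the SBP interval (159.99 to 171) began just above the end of that of I/R (151 to 159.87), a log2 ratio of 0.09 (0.03 to 0.15). Ly6c2, a near-identical neighbour that monocytes express, was at 1.23 CPM in sham, 8.73 CPM after I/R and 5.22 CPM with SBP, so that reads of the pair may have been split between them and the Ly6c1 values are uncertain to that extent.

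The genes of lipid uptake differed by small amounts. Fabp4 (fatty acid binding protein 4, which carries fatty acids through capillary endothelium and is also abundant in adipocytes and some macrophages; chr3:10204088-10208576, minus strand) was at 546 CPM in sham (536 to 555), 494 CPM after I/R (486 to 502) and 487 CPM with SBP (478 to 497). Gpihbp1 (the capillary anchor of lipoprotein lipase; chr15:75596628-75599481, plus strand) was at 78.3 CPM in sham (74.9 to 81.8), 76.0 CPM after I/R (72.9 to 79.2) and 83.6 CPM with SBP (79.8 to 87.6). Fabp4 was thus highest in sham and near equal in the injured sections, and Gpihbp1 was highest with SBP by a margin that left the SBP interval above that of I/R only. Adipocyte markers were at or near 0 in sham (1 UMI of Plin1) and I/R (0 UMIs of Adipoq, Plin1, Cfd and Cidec). A count of 0 does not show absence. The SBP section held 98 UMIs of Cfd, 8 of Adipoq, 9 of Cidec and 3 of Plin1.

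The water channel Aqp1 (aquaporin-1, of capillary endothelium and also of red cells; chr6:55336432-55348555, plus strand) was at 205 CPM in sham (200 to 211), 148 CPM after I/R (144 to 153) and 248 CPM with SBP (241 to 254). Its 3 intervals lay far apart, with I/R lowest and SBP highest. Hemoglobin genes summed to 2878 CPM in sham, 4094 CPM after I/R and 3848 CPM with SBP, an order that was not that of Aqp1. Over spots, Pearson r of Aqp1 with summed hemoglobin was 0.047 in sham (2102 spots), -0.0011 after I/R (1880) and 0.018 with SBP (1747). It was taken on log2 of UMIs + 1 after thinning, with the spots of 1 section sharing 1 library. Thinned Aqp1 averaged 1.35, 0.96 and 1.60 UMIs per spot in the same order, which are low counts for a correlation. The part of red cells in the Aqp1 differences was not tested.

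The secreted proteins were Vwf and Egfl7. Vwf (von Willebrand factor, the clotting protein stored by larger vessels, veins and endocardium; chr6:125546774-125686679, plus strand) was at 37.1 CPM in sham (34.8 to 39.6), 29.0 CPM after I/R (27.1 to 31.0) and 52.7 CPM with SBP (49.7 to 55.9). As with Aqp1, the order was I/R, sham, SBP, with no overlap of intervals. Egfl7 (a matrix-bound factor of endothelium; chr2:26580014-26593120, plus strand) was at 71.3 CPM in sham (68.0 to 74.6), 89.9 CPM after I/R (86.5 to 93.3) and 85.5 CPM with SBP (81.7 to 89.5). Egfl7 was lowest in sham, and the injured sections overlap. The annotation places Mir126a and Gm20532 on the same strand within Egfl7, so that their transcripts could be counted with it.

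**Figure D1:**
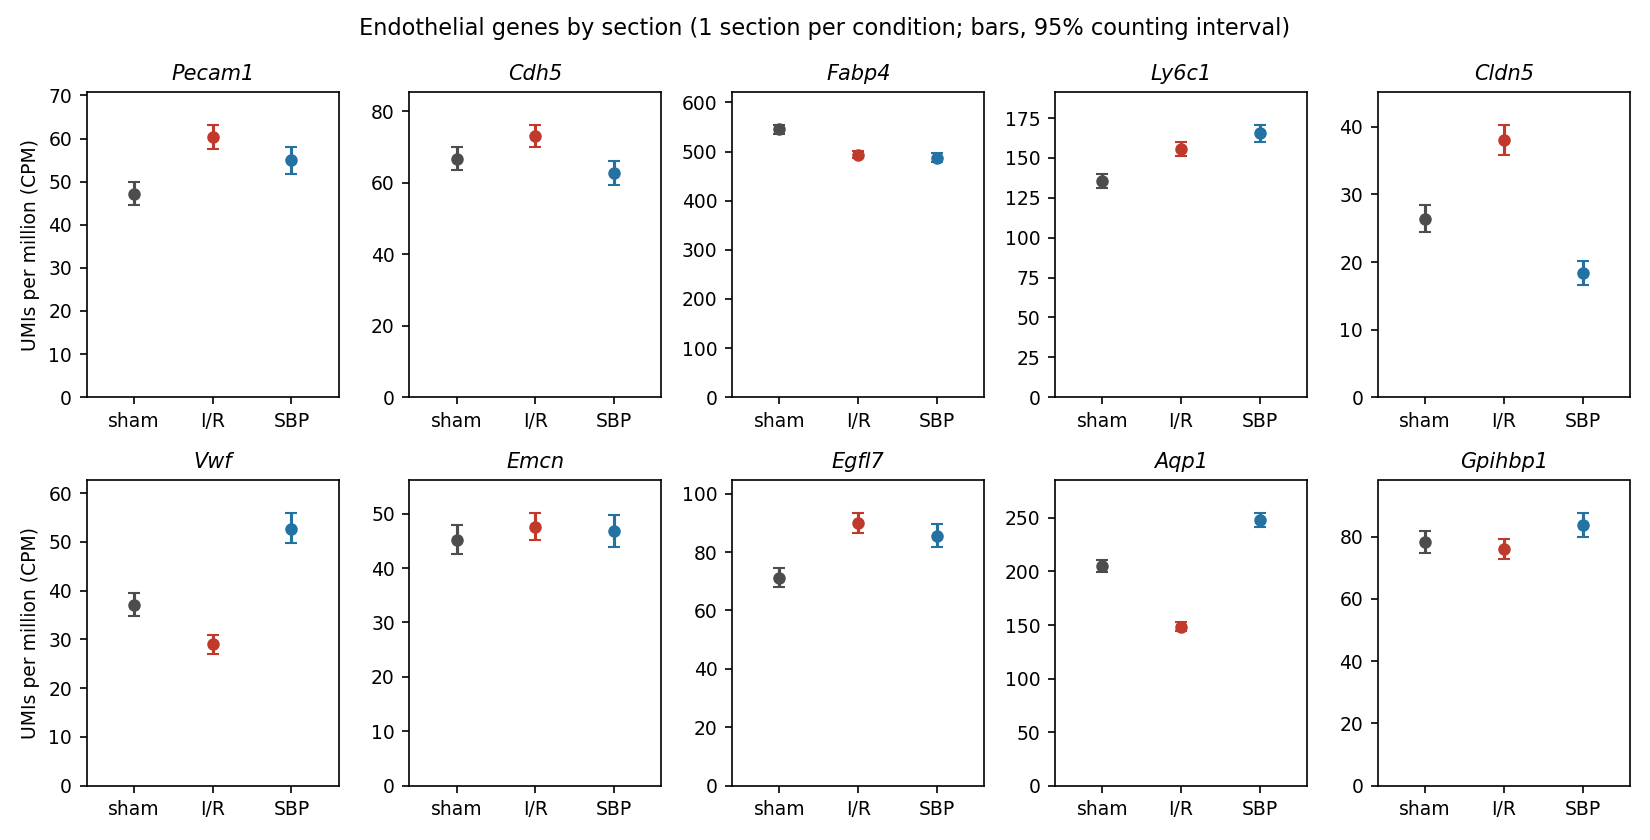
Level of each of the 10 endothelial genes (vertical axis, CPM, starting at 0, 1 scale per gene) in the sham, I/R and SBP sections; points are 1 section each and bars the exact Poisson 95% interval, which covers counting error only. Vwf and Aqp1 were lowest after I/R and highest with SBP, Cldn5 was highest after I/R and lowest with SBP, and Emcn lay between 45.2 and 47.6 CPM.

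Summed, the 10 genes came to 1259 CPM in sham (1245 to 1273), 1212 CPM after I/R (1199 to 1224) and 1305 CPM with SBP (1290 to 1320), and the log2 ratio of the sum was -0.055 when I/R was set against sham and 0.11 when SBP was set against I/R. As a share of the members' own UMIs, which needs no scaling between sections, Aqp1 took 16.3% in sham, 12.2% after I/R and 19.0% with SBP. Cldn5 took 2.097%, 3.14% and 1.40% and Vwf 2.95%, 2.39% and 4.04%, in the same order. Fabp4 took the most in each section, with 43.3%, 40.8% and 37.4%. The opposite order of Cldn5 against Vwf and Aqp1 was the same in these shares. They come from the same UMIs over a sum that differed little between sections, so they are no separate support.

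The comparison of I/R with sham asks how the endothelial genes stood after ischemia and reperfusion. On the log2 scale, Cldn5 was higher after I/R by 0.53 (95% interval 0.39 to 0.67), Pecam1 by 0.35 (0.25 to 0.46) and Egfl7 by 0.33 (0.25 to 0.42), while Aqp1 was at -0.47 (-0.53 to -0.41), Vwf at -0.36 (-0.49 to -0.22) and Fabp4 at -0.14 (-0.18 to -0.11). Past a log2 ratio of 0.5 there was 1 of 10 members higher (Cldn5) and 0 lower, beside 28.4% of the 12231 genes with at least 50 UMIs higher and 4.96% lower. The members' median was 0.10, against 0.24 for all genes, and 7 of 10 members lay below the median of all genes. Relative to that median, Aqp1 was at -0.71, Vwf at -0.60 and Cldn5 at 0.29. Scaling by median-of-ratios factors shifts each ratio by -0.24 and leaves Cldn5 at 0.29, Cdh5 at -0.10, Emcn at -0.16 and Ly6c1 at -0.039, so that the directions of Cdh5, Emcn and Ly6c1 depend on the scaling.

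The comparison of SBP with I/R asks how they stood with the pretreatment. Vwf was higher with SBP by a log2 ratio of 0.86 (0.73 to 0.99), which is 1.82-fold, and Aqp1 by 0.74 (0.68 to 0.80), which is 1.67-fold. Cldn5 was at -1.06 (-1.22 to -0.89), or 0.481 times its I/R level. The other members lay between -0.22 for Cdh5 and 0.14 for Gpihbp1. With median-of-ratios factors Pecam1 (0.025), Fabp4 (0.14), Egfl7 (0.09) and Emcn (0.14) changed sign, so that their directions depend on the scaling too. Past 0.5 there were 2 of 10 members higher, beside 2.9% of 12151 genes, and 1 lower, beside 18%. The ratio of Vwf was above that of 99.3% of all genes and that of Aqp1 above 98.99%, while 3.97% of genes had a ratio below that of Cldn5. The members were chosen with earlier results of these data known. These counts and ranks therefore describe the members and cannot show that they stand out. The members' median was -0.02, against -0.17 for all genes, and 8 of 10 lay above the latter.

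Against sham, the SBP section had Vwf higher by 0.51 (0.38 to 0.63), Ly6c1 by 0.29 (0.22 to 0.36), Aqp1 by 0.27 (0.21 to 0.33) and Egfl7 by 0.26 (0.17 to 0.36). Cldn5 was at -0.53 (-0.71 to -0.35) and Fabp4 at -0.16 (-0.20 to -0.13). Past 0.5 there was 1 of 10 higher, beside 7.75% of 11768 genes, and 1 lower, beside 3.99%. With median-of-ratios factors Vwf was at 0.43, not past 0.5, and Emcn changed from 0.047 to -0.027. These 3 comparisons share their sections in pairs, so a low I/R value enters one with a minus and the next with a plus sign. A section can also differ in the level of the cut, in its share of large vessels or chamber lining, and in the animal, and these cannot be told apart from the condition.

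**Figure D2:**
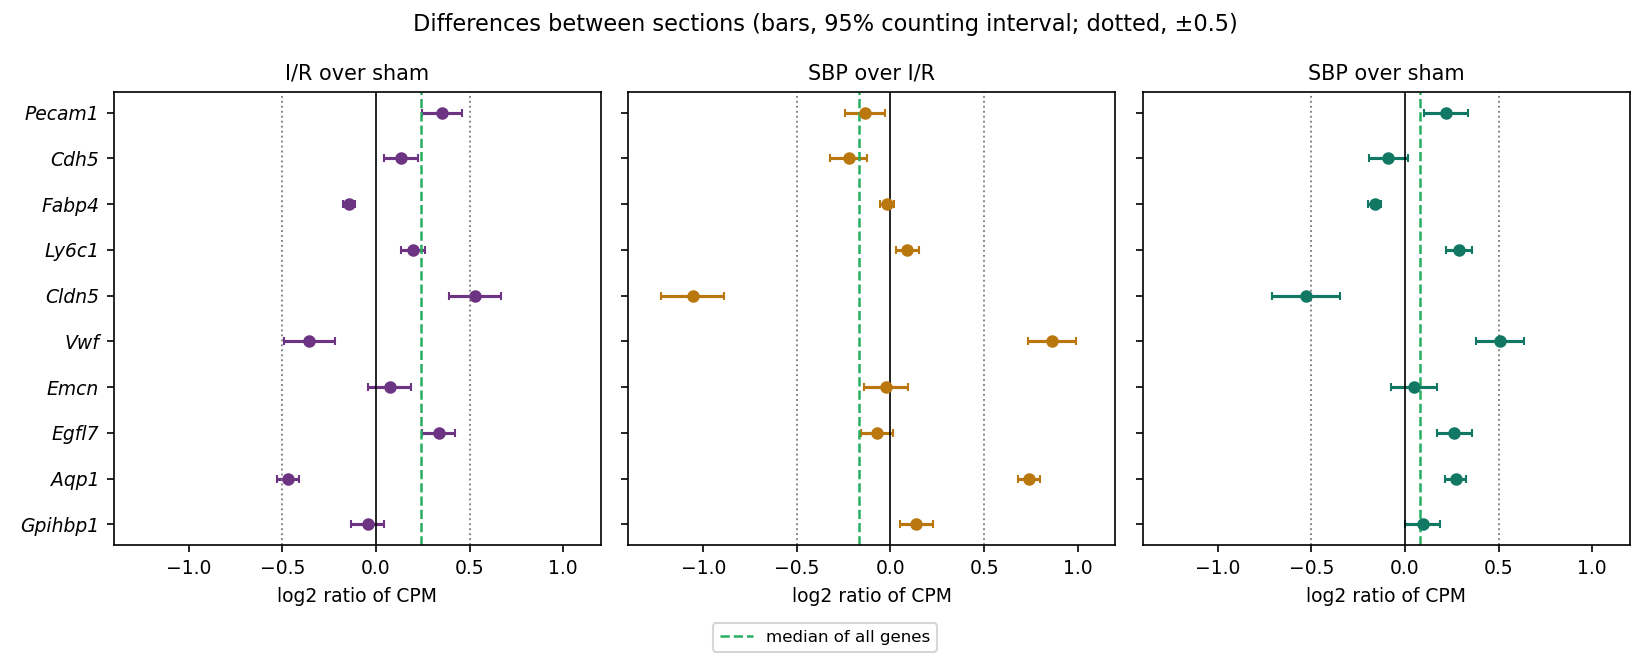
Log2 ratio of CPM (horizontal axis) of the 10 members for I/R over sham, SBP over I/R and SBP over sham; bars are 95% intervals for counting error, the dashed line is the median of all genes with at least 50 UMIs and dotted lines mark -0.5 and 0.5. In SBP over I/R, Vwf (0.86) and Aqp1 (0.74) stand to the right and Cldn5 (-1.06) to the left of the other members.

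Other endothelial genes, from lists made with earlier results of these data known, showed mixed directions too. Of the 12 pan-endothelial markers, 3 were past 0.5 higher and 0 lower in I/R over sham, among them Sox18, a transcription factor of endothelium, at 0.56, and 0 higher and 2 lower in SBP over I/R. Over all genes, 28.4% were past 0.5 higher and 4.96% lower in I/R over sham. In SBP over I/R these shares were 2.9% and 18%, so that the pan-endothelial counts lay near the shares of all genes. Of the 4 most abundant pan-endothelial markers, Eng, a co-receptor of TGF-beta, was at 0.30 and 0.10 in these comparisons, and Flt1 at -0.04 and 0.26. Esam was at 0.40 and -0.28, and Kdr, the main VEGF receptor, at -0.17 and -0.42. Of the 7 capillary markers, 0 were higher and 2 lower in I/R over sham (Cd300lg -0.58 and Timp4 -0.62), and 1 was higher and 0 lower in SBP over I/R (Timp4 0.80, with Cd300lg at 0.44). The most abundant capillary marker, Cav1, the coat protein of caveolae, was at 0.19 and -0.16. Of the 4 vein markers with at least 50 UMIs, 2 were higher in I/R over sham, Plvap (0.84), a protein of vessel pores, and Selp (2.37), an adhesion receptor that platelets also hold, and Selp was lower in SBP over I/R (-0.95). Lymphatic markers were at a median of -0.45 and -0.71 in these comparisons, and Ccl21a, their most abundant gene, at -0.70 and -0.93. The 9 artery markers had medians of -0.06 and -0.03.

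Other cells' markers moved with the sections. The 4 neutrophil markers summed to 27.2 CPM in sham, 236 CPM after I/R and 115 CPM with SBP, the 4 platelet markers to 65.5, 149 and 71.4 CPM, and the 6 macrophage markers to 255, 354 and 248 CPM. The 7 cardiomyocyte markers summed to 20654 CPM in sham, 15798 CPM after I/R and 19071 CPM with SBP, the order of Aqp1 for the lowest section but not for the highest. The 6 fibroblast markers summed to 1503, 1134 and 1444 CPM and the 8 smooth muscle and pericyte markers to 643, 488 and 425 CPM. Genes within these 2 lists did not move alike. In I/R over sham, Gsn was at -0.62, Dcn at -0.35, Col1a2 at 0.06 and Lum at 0.07, and in SBP over I/R at 0.69, 0.11, -0.48 and 0.02. Rgs5 was at -0.61, Acta2 at -0.60, Pdgfrb at 0.40 and Kcnj8 at -0.10 in I/R over sham. In SBP over I/R these 4 were at 0.37, -1.01, -0.10 and 0.23. Markers of T cells (3 genes) and B cells (3 genes) summed to at most 1.39 CPM in each section. The 6 endocardium markers summed to 31.5, 30.6 and 42.3 CPM, and Npr3, a natriuretic peptide receptor by which the study marks endocardium, had 133, 110 and 234 UMIs. The 4 most abundant of these markers did not move alike. In I/R over sham, log2 ratios were -0.54 for Npr3, 0.62 for Nfatc1, 0.04 for Cgnl1 and -0.60 for Tmem100. In SBP over I/R they were 1.57, -0.34, 0.43 and 0.40, so that Nfatc1 went the other way from Npr3 in both. The part of these cells in the members' differences was not tested, and the spots with Npr3 below are a description only.

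Levels per spot were also read as the share of spots with at least 1 UMI after each spot was thinned to 6500 UMIs, which left out 132 spots in sham, 202 after I/R and 213 with SBP. Fabp4 was found in 95.5% of spots in sham (95% interval 94.6 to 96.4), 92.8% after I/R (91.6 to 93.9) and 93.9% with SBP (92.6 to 94.95). Aqp1 was found in 68.1% (66.1 to 70.1), 56.5% (54.3 to 58.8) and 75.2% (73.1 to 77.2), in the same order. Cldn5 was found in 14.0% (12.6 to 15.6), 19.1% (17.4 to 21.0) and 8.82% (7.53 to 10.2). The shares of Aqp1 and Cldn5 therefore kept the order of their CPM at equal depth. Vwf was found in 14.9% (13.4 to 16.5), 13.2% (11.7 to 14.9) and 19.1% (17.2 to 21.0) of spots, so that sham and I/R overlap by share although not by CPM. The others, in the same order, were Ly6c1 at 54.9%, 61.5% and 62.6%, Egfl7 at 35.9%, 42.1% and 38.5%, Pecam1 at 23.7%, 29.0% and 26.7% and Cdh5 at 33.2%, 37.4% and 31.8%. Gpihbp1 was at 38.7%, 38.0% and 39.5% and Emcn at 24.0%, 23.8% and 23.3%. Without thinning the shares were higher, at 81.6%, 76.7% and 84.8% for Aqp1 and 22.3%, 35.1% and 15.5% for Cldn5.

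Vwf was the most unevenly spread member by variance over mean across spots. The 1% of thinned spots with the most Vwf held 24.3% of its UMIs in sham, 25.9% after I/R and 21.9% with SBP, with up to 10, 10 and 15 UMIs in a spot. By that share Cldn5 was above Vwf with SBP, at 23.3%. The variance over mean of Vwf was 2.59, 2.26 and 2.95, where counting alone gives about 1. For Cdh5 that quantity was 1.11, 1.09 and 1.05, and for Gpihbp1 1.06, 1.116 and 1.102, so that these lay close to an even spread. Among members, correlations over spots were weak, with a median Pearson r over the 45 pairs of 0.021 in sham, 0.043 after I/R and 0.036 with SBP, and a largest r of 0.14, 0.18 and 0.20. Ranked by the lowest r of the 3 sections, the first pairs were Fabp4 with Aqp1 (0.13) and Pecam1 with Vwf (0.12). Vwf followed the vein markers (r 0.19, 0.19 and 0.26) and the endocardium markers (0.16, 0.16 and 0.28) more than the capillary markers (-0.0019, 0.035 and 0.017), all over spots of 1 library at low counts. The genes most like the summed members, among 1640 with at least 500 thinned UMIs in every section, were Tmsb4x (lowest r of the 3 sections 0.13), B2m (0.12), Ly6e (0.098), Tm4sf1 (0.095) and Ltbp4 (0.093), followed by H2-D1, Cav1, Fabp5, Gng11 and H2-K1 (0.093 to 0.087). These values were weak throughout.

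Spots with a UMI of Npr3 were looked at for Vwf, a split chosen after the Vwf values were seen. Such spots numbered 103 in sham, 90 after I/R and 151 with SBP. They were deeper, with a median of 11404, 15272 and 12227 UMIs against 10617, 14660 and 10532 in the others, in the same order. The part of the endocardium in the Vwf differences was not tested. Vwf was at 158 CPM in them and 31.0 CPM in the others in sham, at 104 and 25.4 CPM after I/R, and at 241 and 34.8 CPM with SBP. The log2 ratios were 2.35 (2.11 to 2.58), 2.03 (1.76 to 2.29) and 2.79 (2.62 to 2.97), in the same order. In SBP the Npr3 spots held 39.7% of the Vwf UMIs and 8.68% of all UMIs, in sham 20.6% and 4.85%, and after I/R 16.4% and 4.58%. Emcn was also higher there, by 0.94 in sham, 0.90 after I/R and 1.67 with SBP, and Pecam1 by 0.60, 0.37 and 1.06. Fabp4 (-0.02, -0.06 and -0.02) and Aqp1 (-0.03, 0.11 and 0.07) were close to equal, and Cldn5 was at -0.21, -0.53 and -0.997. All spots with a UMI of any endocardium marker were then left out, 564 in sham, 676 after I/R and 581 with SBP, which kept 74.8%, 67.5% and 70.4% of spots. A single UMI without thinning sufficed, so the filter depends on depth, and the part of depth was not tested either. The log2 ratio for SBP over I/R was then 0.37 for Vwf, in place of 0.86, 0.69 for Aqp1 and -1.001 for Cldn5. Emcn for the same comparison went from -0.025 to -0.32 and Pecam1 from -0.14 to -0.25. For SBP over sham the filter took Vwf from 0.51 to 0.17 and Cldn5 from -0.53 to -0.46, so that neither remained past 0.5, and Emcn from 0.047 to -0.26.

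**Figure D3:**
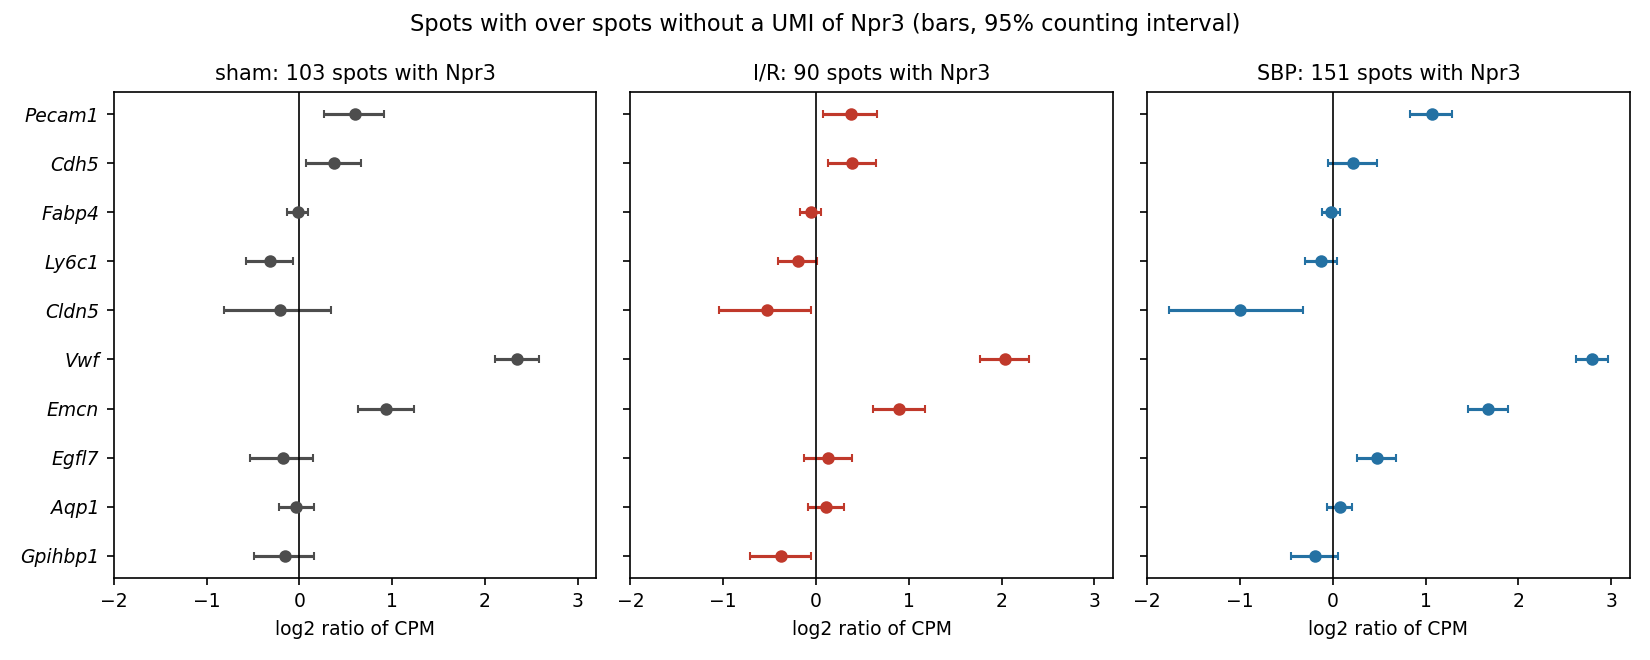
Log2 ratio of CPM (horizontal axis) in spots with over spots without a UMI of the endocardial gene Npr3, for each member in the sham, I/R and SBP sections; bars are 95% intervals for counting error. Vwf (2.03 to 2.79) and Emcn (0.90 to 1.67) lie to the right in each section, while Fabp4 and Aqp1 lie near 0.

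Within a section, spots were divided by Ankrd1, a stress gene of cardiomyocytes by which the study tells infarct from other tissue. Spots above the 95th percentile of sham (26.96 Ankrd1 UMIs per 10000 UMIs) numbered 112 in sham (5.01%), 479 after I/R (23.0%) and 326 with SBP (16.6%). They were deeper than the other spots, with a median of 14927 against 10502 UMIs in sham, 17348 against 14103 after I/R and 11990 against 10453 with SBP, and mitochondrial genes took 45.2% against 48.9% of UMIs in sham, 40.6% against 45.7% after I/R and 43.9% against 46.9% with SBP. The members' median lay near 0 in these spots while the median gene was higher. Their median log2 ratio was -0.07 in sham, 0.07 after I/R and -0.10 with SBP, against 0.31, 0.24 and 0.21 for all genes. Intervals lay wholly below 0 for 4 members in sham, 1 after I/R and 4 with SBP, and wholly above 0 for 0, 2 and 0. Below the median of all genes lay 10 of 10 members in sham, 9 of 10 after I/R (all but Pecam1) and 10 of 10 with SBP.

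Aqp1 was lower in Ankrd1-high spots of each section. It was at 158 CPM in Ankrd1-high and 209 CPM in other spots of sham, at 125 and 157 CPM after I/R and at 193 and 260 CPM with SBP. These are log2 ratios of -0.41 (-0.58 to -0.24), -0.33 (-0.43 to -0.23) and -0.43 (-0.54 to -0.32), and they overlap between sections. The hemoglobin genes were lower in Ankrd1-high spots too. Hba-a1 was at -1.83 in sham, -0.37 after I/R and -0.65 with SBP, and Hbb-bs at -1.94, -0.37 and -0.55. The part of red cells in this contrast was not tested. In quintiles of the spots ordered by Ankrd1, Aqp1 with SBP was lower at each step, at 286, 280, 252, 231 and 196 CPM from the lowest quintile to the highest. In I/R it went from 179 CPM in the lowest to 125 CPM in the highest quintile, and in sham from 217 to 186 CPM. The sham section, which had no ligation, showed the same direction, and the part of ischemia in this contrast was not tested.

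Vwf differed between sections in this contrast. Among sham spots it measured 19.0 CPM where Ankrd1 was high (35 UMIs) and 38.5 CPM elsewhere, a log2 ratio of -1.02 (-1.55 to -0.54). In I/R it was at 28.1 and 29.3 CPM, -0.06 (-0.28 to 0.16), and with SBP at 40.8 and 55.4 CPM, -0.44 (-0.69 to -0.20). The ratio was higher after I/R than in sham by 0.96 (0.43 to 1.497), and the ratio with SBP minus that after I/R was -0.38 (-0.71 to -0.06), by counting error alone. Where the upper 20% of the sham spots was taken in place of the 95th percentile, the sham ratio was 0.46, and it was -1.21 at the 99th percentile and -0.065 at the 90th. It was negative in 10 of 11 alternatives, and its size depended on which spots were taken. By quintiles, Vwf had its most in the third in both injured sections, at 55.5 CPM after I/R and 82.6 CPM with SBP. Npr3 in Ankrd1-high over other spots was at -1.78 in sham (3 UMIs in the former), -0.26 after I/R and -1.02 with SBP. Other endocardium markers were mixed. In the same order, Nfatc1 was at -0.28, 0.39 and 0.19, Cgnl1 at 0.37, -0.29 and -0.15 and Tmem100 at -0.34, 0.10 and -0.40. The part of the endocardium in this contrast was not tested.

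Of the others, Emcn was at 33.1 CPM in Ankrd1-high and 46.2 CPM in other spots of sham, a log2 ratio of -0.48 (-0.88 to -0.11), and at -0.12 after I/R and -0.11 with SBP, where the intervals include 0. Pecam1 was at 70.4 and 56.7 CPM after I/R, 0.31 (0.17 to 0.46), and Ly6c1 at 169 and 150 CPM, 0.17 (0.08 to 0.26). Fabp4 was at 488 and 550 CPM in sham (-0.17), 504 and 490 CPM after I/R (0.04) and 456 and 494 CPM with SBP (-0.12), and Gpihbp1 at 72.5 and 86.1 CPM with SBP (-0.25). Cldn5 and Cdh5 had intervals that include 0 in each section. In Ankrd1-high spots of sham, 0 of 10 members were past 0.5 higher and 1 lower (Vwf), beside 34.7% and 7.47% of 10642 genes. In I/R these were 0 and 0, beside 20.4% and 5.16% of 11408 genes, and with SBP 0 and 0, beside 22.6% and 6.56% of 10469 genes. Within Ankrd1-high spots the differences between SBP and I/R kept the directions of the whole sections for Cldn5 (-1.14), Aqp1 (0.63) and Vwf (0.54), and within the other spots they were -1.01, 0.73 and 0.92.

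**Figure D4:**
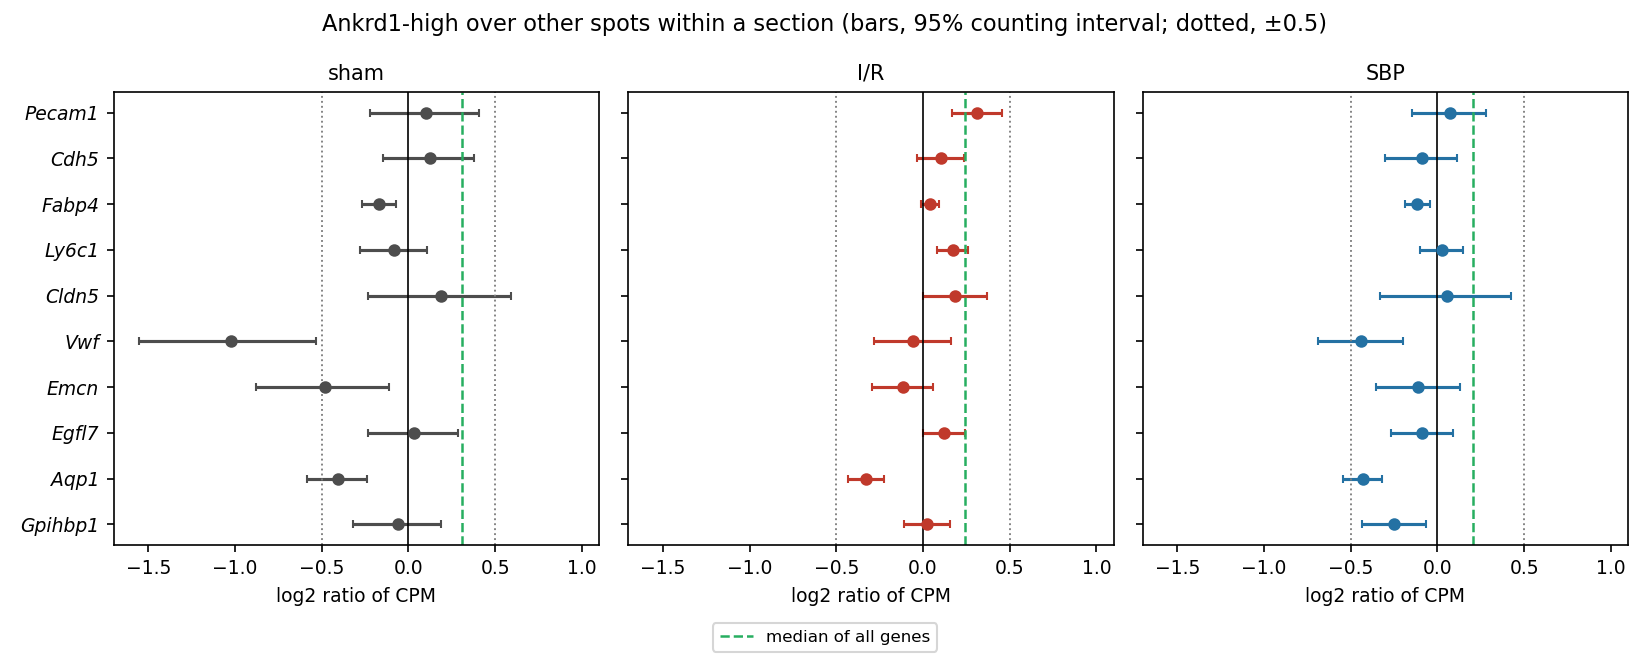
Log2 ratio of CPM (horizontal axis) in Ankrd1-high over other spots of the same section for the 10 members, in sham (112 against 2122 spots), I/R (479 against 1603) and SBP (326 against 1634); bars are 95% intervals for counting error, the dashed line the median of all genes. Aqp1 lies between -0.43 and -0.33 in each section, and only Pecam1 after I/R lies to the right of the dashed line.

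A list of 10 injury genes (Timp1, Spp1, Lgals3, Serpina3n, Ccn2, Tgfbi, Fn1, Tnc, Lcn2 and Saa3) set a different region, of 112 spots in sham, 762 after I/R and 348 with SBP above the 95th percentile of sham. Of these, 36, 330 and 135 spots were also Ankrd1-high. The list genes did not move alike in whole sections. In I/R over sham, Serpina3n was at 0.08 and Lcn2 at 0.19, and the others lay between 1.13 (Saa3) and 3.01 (Tnc). In SBP over I/R, Lcn2 (0.54), Serpina3n (0.44) and Saa3 (0.57) were higher, and the others lay between -1.89 (Ccn2) and -0.81 (Timp1). Injury-high spots may thus not mark the same state in each section. In I/R, Cldn5 was at 63.3 CPM in injury-high and 26.3 CPM in other spots (log2 ratio 1.27, 1.096 to 1.43), Pecam1 at 98.9 and 42.5 CPM (1.22, 1.09 to 1.35) and Egfl7 at 137 and 68.1 CPM (1.004, 0.89 to 1.11). Emcn (0.76), Cdh5 (0.58) and Ly6c1 (0.28) were also higher there, Fabp4 (-0.01), Vwf (-0.04) and Gpihbp1 (0.07) were near equal, and Aqp1 was at 119 and 162 CPM (-0.44, -0.54 to -0.34). The members thus differed within the injury-high spots of I/R. Cldn5, Pecam1 and Egfl7 were higher by more than the median of all genes (0.85), and Aqp1 was lower. The other members, the junction gene Cdh5 among them, lay below that median.

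In SBP, Cldn5 was at 40.5 CPM in injury-high and 13.9 CPM in other spots (1.54, 1.24 to 1.84), Pecam1 at 78.4 and 50.3 CPM (0.64, 0.44 to 0.84) and Aqp1 at 201 and 257 CPM (-0.35, -0.47 to -0.24). In sham, which had no ligation, the 112 spots already had Cldn5 at 0.80 (0.41 to 1.17), Pecam1 at 0.47 (0.15 to 0.77) and Aqp1 at -0.57 (-0.78 to -0.37). Past 0.5 there were 5 of 10 members higher and 0 lower after I/R, beside 67.7% and 8.11% of all genes tested. In SBP there were 2 and 0, beside 50% and 5.86%, and in sham 1 and 1, beside 56.8% and 7.53%. These shares of all genes are large, and the median of all genes was 0.85 after I/R, 0.50 with SBP and 0.62 in sham. In I/R only Cldn5, Pecam1 and Egfl7 lay above it. In the injury-high spots of I/R mitochondrial genes took 31.9% of UMIs against 50.1% in the others, cardiomyocyte markers were at 9109 against 18914 CPM, neutrophil markers at 663 against 36.9 CPM, macrophage markers at 705 against 190 CPM and platelet markers, whose cells also carry Pecam1, at 323 against 68.0 CPM. Their part in the members' values was not tested.

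**Figure D5:**
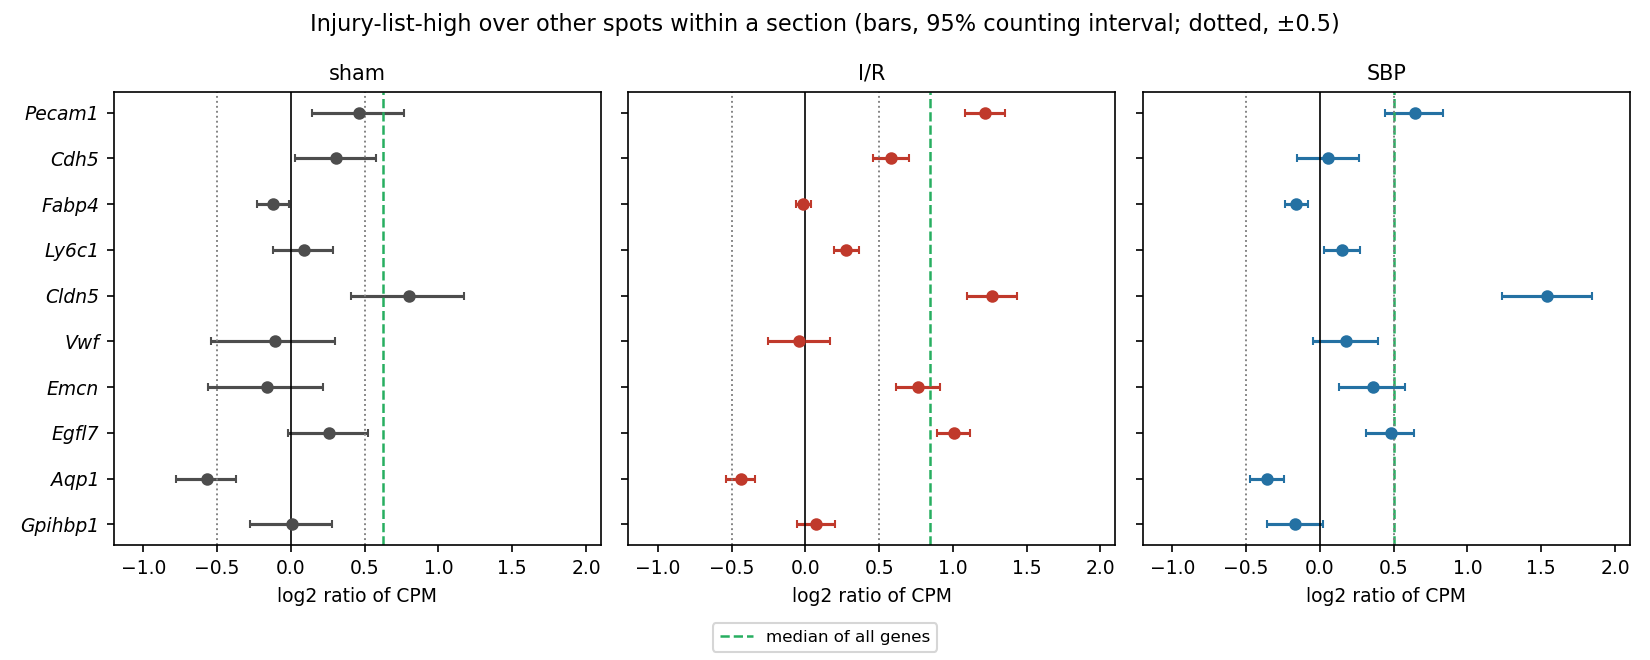
Log2 ratio of CPM (horizontal axis) in injury-list-high over other spots of the same section for the 10 members, in sham, I/R and SBP; bars are 95% intervals for counting error, the dashed line the median of all genes and dotted lines -0.5 and 0.5. In I/R, Cldn5 (1.27), Pecam1 (1.22) and Egfl7 (1.004) lie to the right of the dashed line and Aqp1 (-0.44) to the left of 0.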

How the data were processed

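Members and gene lists were chosen with earlier results of these data known. The deposited values are raw UMI counts for every gene in every spot, which the authors made with Space Ranger 1.3.0 (mm10 per the labels). The study's methods give another version and a human reference for these data, while the identifiers are of mouse genes, of which 32235 of 32285 were found in GENCODE M21 (GRCm38), the source of positions. Groups came from the labels.

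A spot was kept with 200 or more detected genes (removing 3, 1 and 2 in sham, I/R and SBP). UMIs were summed over spots and scaled by the total UMIs of the same spots. Ratios were read beside the median of all genes with at least 50 UMIs in both groups together. Spots were thinned without replacement (seed 1) to 6500 UMIs, the 10th percentile rounded down to a multiple of 500. Named genes were all members, Ankrd1, up to 4 of the most abundant genes of each list, and the 10 genes most like the summed members; Robo4, Timp4, Cd300lg, Plvap, Selp, Sox18, Ackr1, Npr3 and the paralog Ly6c2 were named after their values were seen. Spot positions were not used here. The alternatives were other scalings, spot filters, thresholds and depths. The ratio code was tested on simulated data. Scripts ran under Python 3.11.15 (matplotlib 3.10.9, pandas 2.3.3, scipy 1.17.1 and numpy 2.4.6). TMM factors followed the published formula.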

Additional observations from a re-analysis of the deposited data

How the results depend on the processing

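No paired analysis was possible because a single section stood for every condition. The members' median log2 ratio for I/R over sham (0.10) changed sign with UMIs without the 13 mitochondrial genes (-0.012), median-of-ratios factors (-0.13) and TMM factors (-0.13), and was 0.21 with equal weight for each spot. With UMIs that also leave out cardiomyocyte markers, a choice made after seeing the data, it was -0.030. Both sets of factors changed the sign of Cdh5 (-0.10 with both factors), Ly6c1 (-0.039 and -0.031) and Emcn (-0.16 and -0.16). For SBP over I/R the median (-0.02) was 0.14 with both factors, and Pecam1 was 0.025 and 0.021. The factors shift all ratios alike. The median for Ankrd1-high spots of I/R (0.07) was -0.068 at the 99th percentile of sham and 0.43 with the injury list, and that of SBP (-0.10) was 0.16 with the injury list. Vwf changed sign in sham with the upper 20% of spots (0.46) and with SBP with the injury list (0.18). With a threshold of a log2 ratio of 1, the counts of 1, 2 and 1 members higher in I/R over sham, SBP over I/R and SBP over sham were 0, and that of 1 lower in SBP over sham was 0. The median share of spots with a UMI (34.5% in sham, 37.7% after I/R and 35.1% with SBP) was 6.96%, 7.27% and 7.02% when thinned to 1000 UMIs and 49.9%, 60.8% and 50.1% without thinning.

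For SBP over I/R, over 12 alternatives, Cldn5 lay between -1.18 and -0.89, Aqp1 between 0.69 and 0.90 and Vwf between 0.37 and 1.03, the lowest Vwf value without spots that had an endocardium marker, also chosen after seeing the data. For I/R over sham, Cldn5 lay between 0.29 and 0.78 and Aqp1 between -0.71 and -0.37. Depth limits Cldn5, which rests on 396 to 1151 UMIs per section, and Vwf in Ankrd1-high spots of sham, which rests on 35. No replicate section was at hand, so the spread between animals is unknown.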

Other observations

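Genes around the members that belong to none of the comparisons were read in whole sections. Lpl, the lipase that Gpihbp1 carries to the capillary surface, was at 2628 CPM in sham, 1846 CPM after I/R and 2585 CPM with SBP, while Gpihbp1 itself lay between 76.0 and 83.6 CPM. Fabp5, a relative of Fabp4 found in endothelium and macrophages, was at 73.2 CPM in sham, 120 CPM after I/R and 82.5 CPM with SBP, an order that differed from that of Fabp4. Ly6a, a neighbour of Ly6c1 in the same gene family, was at 177 CPM in sham, 213 CPM after I/R and 198 CPM with SBP. In I/R, Pecam1, Egfl7 and Cldn5 had negative correlations over 1880 spots with summed cardiomyocyte markers (Pearson r -0.28, -0.27 and -0.23), while those of Aqp1 and Fabp4 were 0.094 and 0.057. These spots share 1 library, and a spot with fewer cardiomyocyte UMIs has more left for other genes. These genes were chosen after their values were seen.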
